A study of Homo sapiens with 2 samples.

Results

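The genes described here are 2 matrix metalloproteinases and 5 inhibitors of such enzymes: MMP2, MMP14, TIMP1, TIMP2, TIMP3, TIMP4 and RECK. They were picked by gene symbol rather than by a cut on measured values, but with earlier results of these data known. They are 7 of the 18417 genes with a symbol of their own on the array. The cells were A549, a human line established from a lung adenocarcinoma. Control cells carried an empty vector by transfection, and the other cells overexpressed the microRNA miR-130b. Before labelling, RNA was enriched by immunoprecipitation of Argonaute2 (Ago2), the effector protein of microRNA silencing, which carries a microRNA together with its paired mRNA. Each group had 1 array. There is therefore no replicate error and no p-value for any value below, and each difference describes these 2 arrays. The comparison addressed which mRNAs the Ago2 precipitate held more or less of when miR-130b was overexpressed, and TIMP2 is a reported target of miR-130b. RNA before precipitation was not analysed here, so the amount of an mRNA and its share bound to Ago2 cannot be told apart.

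MMP2, gelatinase A, is secreted as a proenzyme and cleaves type IV collagen, the network-forming collagen of basement membranes. Its activation is a cell-surface reaction: MMP14, a membrane-anchored metalloproteinase, binds TIMP2, the TIMP2 binds proMMP2, and a neighbouring free MMP14 cuts the propeptide. TIMP2 is thus both an inhibitor of the active enzymes and an adaptor for activation. The other TIMPs are secreted inhibitors of overlapping range, and RECK is a membrane-anchored glycoprotein that restrains MMP2 and MMP14 at the cell surface.

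MicroRNA sequences are shown here because the seed, bases 2 to 8 from the 5′ end, sets most of the pairing with a target mRNA. In the sequences below, taken from RefSeq's tables for GRCh38.p14 and written 5′ to 3′, the seed is in capitals. The first pair are the arms of the overexpressed microRNA, of which the 3p arm lies at chr22:21653354-21653375 on the + strand. The next one is a relative with the same seed, and the last 3 belong to microRNAs reported to act on these genes: miR-21 on RECK and TIMP3, miR-29a on MMP2 and miR-221 on TIMP3.
hsa-miR-130b-3p: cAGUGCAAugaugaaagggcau
hsa-miR-130b-5p: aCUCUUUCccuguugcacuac
hsa-miR-301a-3p: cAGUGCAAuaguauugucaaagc
hsa-miR-21-5p: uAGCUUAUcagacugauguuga
hsa-miR-29a-3p: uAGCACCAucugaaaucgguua
hsa-miR-221-3p: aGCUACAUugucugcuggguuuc
The seed of the 3p arm was that of 6 mature microRNAs in the table, itself, miR-301a-3p and miR-454-3p included. That count covers the names found there and need not be the whole seed family. The seed of the 3p arm differed from the seeds of miR-21-5p, miR-29a-3p and miR-221-3p.

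The arrays separated as their labels state. MIR130B, the gene of miR-130b, had a log2 level of 6.66 in the control precipitate and 12.64 in that of the overexpressing cells, and AGO2 was at 11.41 and 11.66. Keratin genes of an epithelial line were abundant on both arrays, with KRT8 at 13.38 and 13.48 and KRT18 at 13.22 and 13.19. EPCAM, an epithelial surface marker, stood within the range of olfactory receptor genes on both arrays. Those 341 receptor genes, which a lung line is not known to use, served as a guide to background: their 95th percentile was 7.08 on the empty-vector array and 7.17 on the miR-130b array, and their differences ran from -0.47 to 0.66, with 0 of them past 2-fold. A second guide to error was the spread between different probe sets of the same gene, whose differences had a pooled SD of 0.16 over 356 genes. Those genes had mean levels at or above the median of named genes, so the SD was not estimated for lower signals. Neither guide holds the variation between cultures or precipitations.

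MMP2 was the 1 member of the 7 that differed by 2-fold or more, and none was 2-fold lower. Its level was 8.72 on the empty-vector array and 12.05 on the miR-130b array. The difference of 3.34 on the log2 scale, or 10.1-fold, was 20.5 times the SD between probe sets. Past 2-fold, 1.06% of all named genes were higher with miR-130b and 1.37% were lower. Among the 9209 genes whose mean level was at or above the median of named genes (8.64), called the kept genes below, these shares were 1.32% and 1.6%. MMP2's empty-vector level lay just above that median (8.72 against 8.64), so the gene would narrowly have been kept without the miR-130b value. MMP2 had the 4th largest increase among the kept genes, as 4 of them, itself and MIR130B included, had a difference at least as high. Those above it, MIR130B, NCKAP5 and HSPA2, were kept only through their values on the miR-130b array. It was measured by 1 probe set, so no other probe set of the gene checks the value.

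MMP14, the activator of proMMP2, showed no comparable difference. Its level was 7.61 on the empty-vector array and 7.56 on the miR-130b array. The difference of -0.04 is smaller than the SD between probe sets, which was estimated on genes of higher level. Both levels were just above the 95th percentile of olfactory receptor genes and below the median of named genes, so MMP14 was not among the kept genes. Array background adds to a signal this low and can hide part of a difference.

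**Figure D1:**
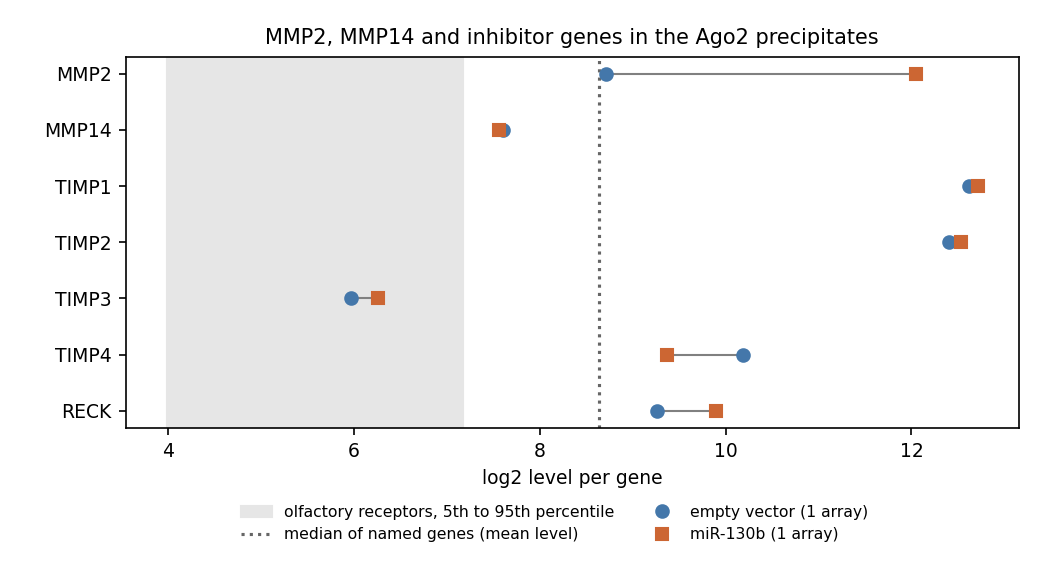
Log2 level of each gene on the empty-vector array (circles) and the miR-130b array (squares), 1 array per group; the grey band spans the 5th to 95th percentiles of olfactory receptor genes over both arrays and the dotted line is the median mean level of named genes. MMP2 moves from 8.72 to 12.05, TIMP1 and TIMP2 lie above 12 on both arrays, and TIMP3 lies within the grey band.

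With miR-130b, 4 of the 5 inhibitors were higher and 1 was lower. Their median difference was 0.14, and none reached 2-fold. The median over all named genes was 0.05. TIMP2, the reported target, gave a strong signal in both precipitates, 12.40 in the control and 12.54 under miR-130b. The 1.10-fold difference (0.14) was below the SD between probe sets, and 63.2% of the kept genes lay at least as far from 0. TIMP1, a broad secreted inhibitor with growth-promoting activity, likewise stood at 12.62 and 12.72, a difference of 0.10 (1.07-fold). Both genes were thus far above the olfactory receptor range on either array, and neither differed by more than the SD between probe sets.

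TIMP3, the TIMP that binds to the extracellular matrix and also inhibits ADAM17, had the lowest signal of the family relative to background. The mean of its 2 probe sets was 5.97 on the empty-vector array and 6.26 on the miR-130b array. These values lie within the range of olfactory receptor genes on both arrays. One probe set differed by 0.17 and the other by 0.40, and no fold is given for the gene.

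TIMP4, an inhibitor with a narrower tissue range than its relatives, was the 1 inhibitor lower with miR-130b. It stood at 10.19 on the empty-vector array and 9.37 on the miR-130b array. The difference of -0.82 makes it 1.76-fold lower, 5.02 times the SD between probe sets. Among the kept genes, 257 had a difference this low or lower, and 5.27% lay as far from 0 in either direction.

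RECK went the opposite way. Its level was 9.26 on the empty-vector array and 9.89 on the miR-130b array, a difference of 0.63 (1.55-fold higher) and 3.88 times the SD between probe sets. By the other guide to error, the differences of the olfactory receptor genes reached 0.66. RECK lay above 95.7% of the kept genes, and 400 of them were at least as high. At a threshold of 1.5-fold, MMP2 and RECK would count as higher and TIMP4 as lower. Of all kept genes, 5.04% were higher and 5.87% lower at that threshold.

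**Figure D2:**
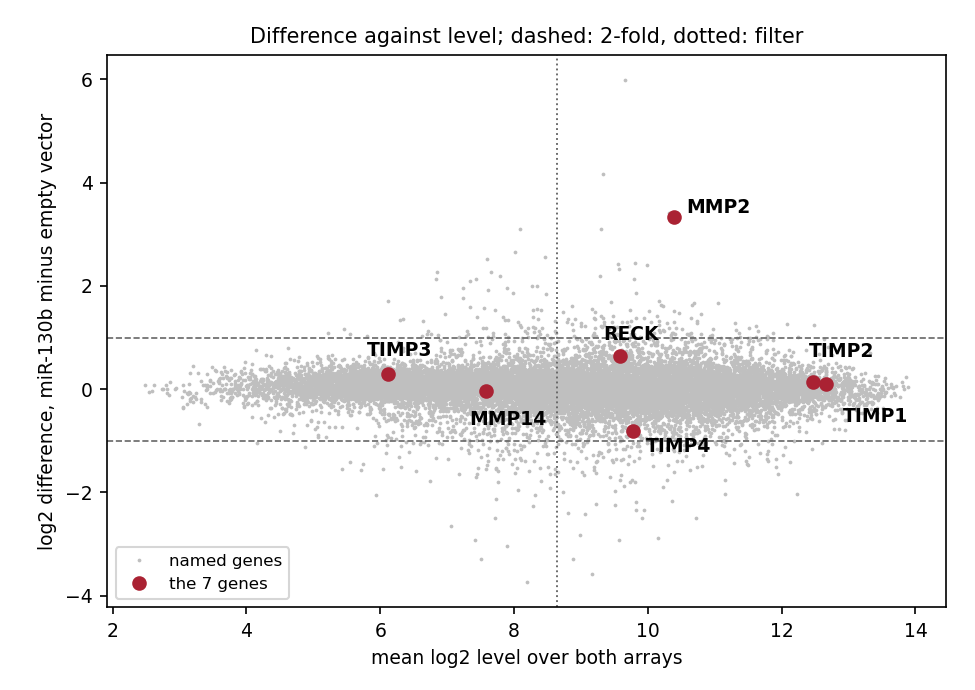
Difference of log2 values (miR-130b minus empty vector) against the mean log2 level for 18417 named genes (grey) and the 7 described genes (red); dashed lines mark 2-fold and the dotted line marks the median mean level, 8.64. MMP2 lies far above the cloud at 3.34, RECK (0.63) and TIMP4 (-0.82) lie near opposite edges of it, and the other 4 lie inside it.

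The share of 2-fold differences varied with level. With the named genes split by mean level into 4 groups of equal size, it was 0.977% in the lowest group, which holds TIMP3, and 2.91% in the next, which holds MMP14. The share was 3.67% in the group of TIMP4 and RECK and 2.17% in the highest group, which holds MMP2, TIMP1 and TIMP2. MMP2 is in the highest group only through its miR-130b value, as its empty-vector level of 8.72 lies in the range of the TIMP4 and RECK group. TIMP3 thus comes from the levels at which 2-fold differences were least frequent.

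The change of protease relative to inhibitor was set by MMP2. Signals of different genes cannot be compared as amounts, but the change of a ratio between the arrays can be given. The ratio of MMP2 to TIMP2 was 9.19-fold higher with miR-130b, a log2 change of 3.20 ± 0.23, where 0.23 is the SD of a difference of differences implied by the spread between probe sets. Against TIMP1 the MMP2 ratio changed by 3.24 and against TIMP4 by 4.16. Against RECK, the inhibitor with the largest increase, it changed by 2.71, or 6.52-fold. MMP14 gave no such shift. Its ratio to TIMP2 changed by -0.18 and its ratio to TIMP1 by -0.14. Both lie within 1 such SD, which was not estimated at levels as low as that of MMP14. The MMP14 ratio changed by -0.68 against RECK and by 0.77 against TIMP4. With TIMP3 the log2 changes were 3.05 for MMP2 and -0.33 for MMP14, and these rest on a TIMP3 signal in the background range.

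**Figure D3:**
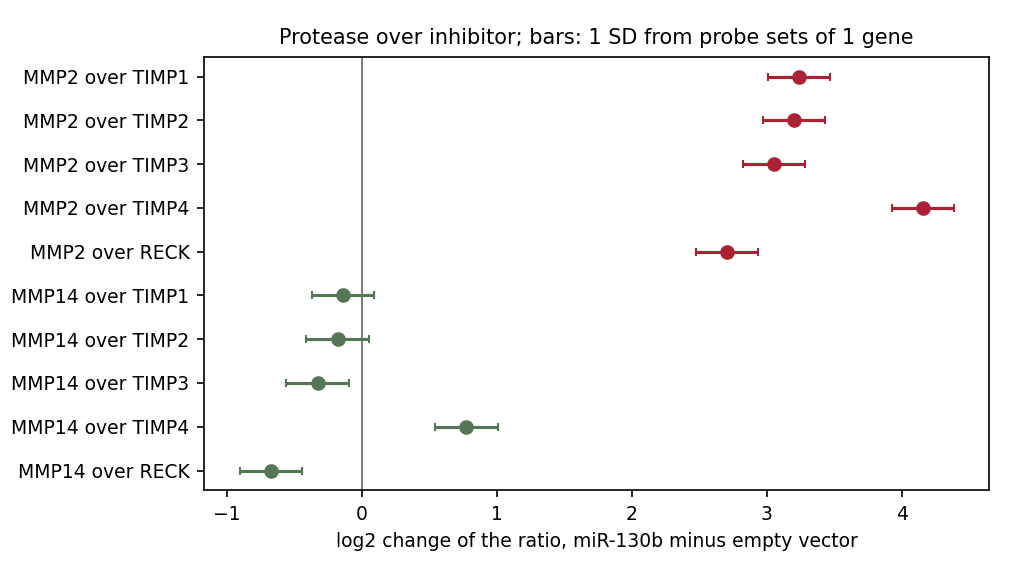
Log2 change of the ratio of each protease to each inhibitor (miR-130b minus empty vector; red, MMP2; green, MMP14), with bars of 1 SD, 0.23, from the spread between probe sets of 1 gene and without any variation between cultures. The SD comes from kept genes, and MMP14 and TIMP3 lie below that filter. The 5 ratios with MMP2 lie between 2.71 and 4.16, and those with MMP14 lie between -0.68 and 0.77.

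Around these genes, 7 lists of proteins that activate, dock, inhibit or serve as substrates were examined, with 95 genes of which 91 were measured and 60 kept. Of the kept genes 38 were higher and 22 were lower. Their median difference was 0.10, and the median of all kept genes was 0.01. Past 2-fold, 7 of the 60 were higher and 3 were lower, and among all kept genes 2.92% were past 2-fold in either direction. Of the higher ones, SPOCK1 was kept only through its level on the miR-130b array. Where a pair of levels is given, that of the empty-vector array comes first. The lists were compiled with earlier results of these data known, so these shares are a description.

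The list drawn up around MMP2 activation, in which not every gene need be an activator, had a median of 0.04 over 7 kept genes of 10 measured. FURIN, the proprotein convertase that cuts the propeptide of MMP14, stood at 8.94 and 9.35, a difference of 0.41. PCSK5, another convertase, differed by 0.43 at a level below the filter. PCSK6, a convertase that binds heparan sulphate outside the cell, was 1.88-fold lower (11.31 against 10.40). CLDN1, the tight junction protein claudin-1, which has been reported to promote MMP2 activation by membrane-type MMPs, was 2.23-fold lower (13.03 against 11.88). None of the other membrane-anchored MMPs listed differed by 2-fold, which 2.43% of all named genes did in either direction. MMP15 differed by 0.36, MMP16 by 0.43 at a background level, MMP17 by 0.14, MMP24 by -0.16 and MMP25 by 0.20 below the filter.

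Among proteins that dock MMP2 at the cell, clear it or induce it, 2 of 9 kept genes were past 2-fold, both higher. ITGB3, the beta subunit of the integrin alpha-v beta-3 that can bind MMP2 at the cell surface, was 2.47-fold higher (9.75 against 11.05). Its partner ITGAV differed by -0.02 (12.93 against 12.90). THBS1, thrombospondin 1, which binds MMP2 and promotes its uptake, was 2.40-fold higher (11.46 against 12.72). LRP1, the endocytic receptor for that complex, differed by -0.12. CAV1, a caveolae protein, differed by 0.40 and BSG, the MMP inducer basigin, by -0.04. HABP2, a hyaluronan-binding serine protease, was 1.88-fold lower.

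The other collagenases, stromelysins and gelatinases were mostly near background. Of 10 such genes 1 was kept, and none of the 10 differed by 2-fold. Of all named genes 2.43% did so in either direction. By mean level, the share was 0.977% in the lowest group and 2.91% in the next. With shares this small, finding none among 10 genes does not set this list apart from other genes. MMP9, the other gelatinase, stood at 7.05 and 7.26, a difference of 0.21 near the 95th percentile of olfactory receptor genes. MMP7, matrilysin, the 1 kept gene, was 1.91-fold lower (10.15 against 9.22). MMP19, a broad-range MMP below the filter, differed by -0.30. MMP1, MMP3, MMP8, MMP10 and MMP13 lay within the range of olfactory receptor genes on both arrays.

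Other inhibitors and regulators of the pericellular space did not share 1 direction. All 5 kept genes of this list were higher, with a median of 0.57, but the 13 measured had a median of 0.17. SPOCK1, the proteoglycan testican-1, which inhibits membrane-type MMP activation of proMMP2, was 2.55-fold higher (8.23 against 9.58). PCOLCE2, an enhancer of procollagen processing, differed by 0.74 and SERPINE2, a serine protease inhibitor, by 0.57. Below the filter, SERPINF1, the secreted serpin PEDF, was 2.72-fold lower (8.70 against 7.25) and SLPI, an inhibitor of leukocyte elastase, 2.16-fold lower (8.70 against 7.59). The filter on mean level left both out of the kept genes, although both were above its level of 8.64 on the empty-vector array. SPOCK1 was below that level on the empty-vector array and was kept through its miR-130b value. The shared direction of the kept genes thus depends in part on the filter.

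Known partners of the TIMPs and of RECK were split, with 6 of 12 kept genes higher and 6 lower and a median of 0.02. FZD7, a Wnt receptor, was 2.22-fold higher (9.20 against 10.35). FZD4, a receptor in the WNT7 signalling complex that contains RECK, differed by 0.88 at a level below the filter. WNT7B, a ligand of that complex, differed by 0.40 and ADGRA2, its co-receptor with RECK, by 0.27. ADAM17, the sheddase inhibited by TIMP3, was 1.63-fold lower (12.09 against 11.38), and the related ADAM10, which RECK restrains, differed by 0.07. The TIMP1 receptor CD63 differed by -0.38 and NTN4, a basement membrane netrin, by -0.39. ITGA3 and ITGB1, subunits of the integrin that binds TIMP2, differed by -0.38 and -0.04.

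Substrates in the basement membrane had a median of 0.05 over 11 kept genes. The type IV collagen genes lie in neighbouring pairs on the chromosomes. The main pair, COL4A1 and COL4A2, differed by 0.09 and -0.07, and COL4A3 and COL4A4, both below the filter, by 0.00 and 0.08. COL4A5 and COL4A6, the pair on chromosome X, were both higher: COL4A6 by 1.16 (2.23-fold) and COL4A5 by 0.81 (1.76-fold). NID2, a nidogen that links laminin to type IV collagen, was 1.95-fold higher. LAMB3, the beta chain of laminin-332 in epithelial anchoring, was 2.66-fold lower (9.64 against 8.23), and LAMA5 differed by -0.48.

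Transcription factors reported to act on these genes had a median of 0.16 over 15 kept genes, of which 12 were higher. TFAP2A, the factor AP-2 alpha with a site in the MMP2 enhancer, was 2.09-fold higher (10.08 against 11.15) and ETS2 2.02-fold higher (11.73 against 12.75). ETS1, of the same family, was 2.05-fold lower (10.56 against 9.53). SNAI1, a repressor of epithelial genes, was 2.28-fold higher (7.82 against 9.01) below the filter. KLF4, a Krüppel-like factor, differed by -0.79, and SP1, which acts at GC-rich promoters, by 0.16.

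**Figure D4:**
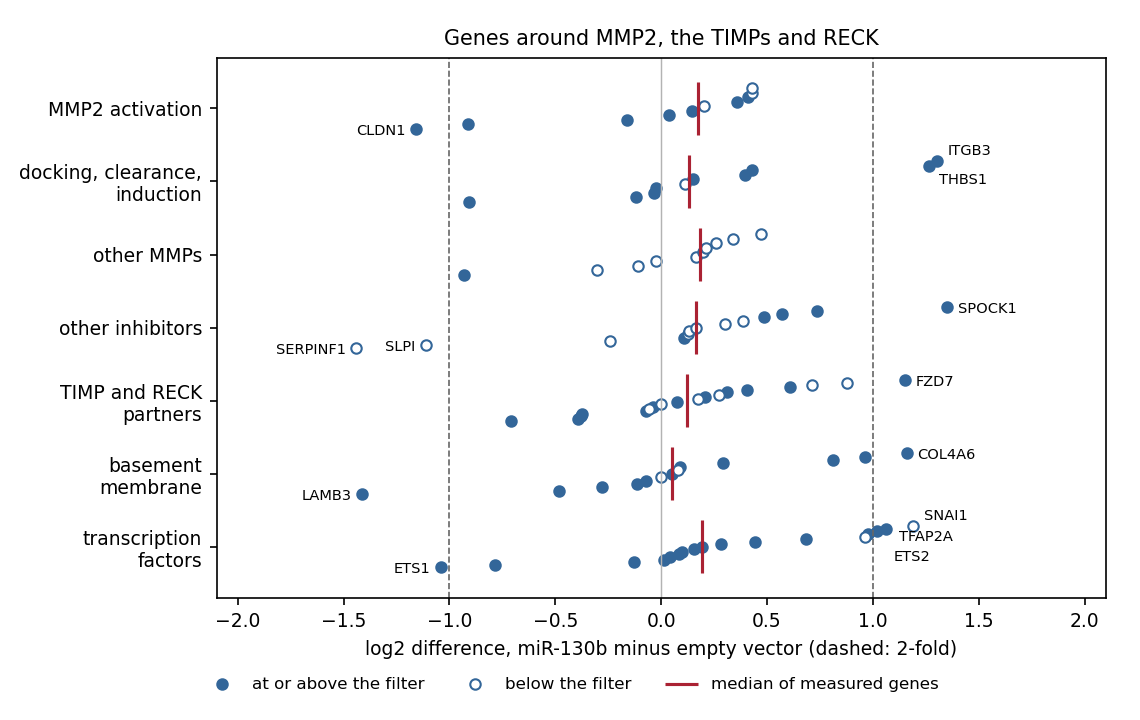
Log2 difference (miR-130b minus empty vector) of each measured gene in the 7 lists, with filled points for genes at or above the filter, open points for genes below it, red bars for the median of the measured genes and dashed lines at 2-fold. List medians lie between 0.05 and 0.19, and named points mark the 13 list entries past 2-fold, from SERPINF1 at -1.44 to SPOCK1 at 1.35.

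MMP2 is also a product of fibroblasts, so markers of other cell types were set beside it. All 10 fibroblast markers had a higher value on the miR-130b array, with a median difference of 0.35, and 1 of the 10 was a kept gene. The median difference was 0.05 over all named genes and 0.07 over the olfactory receptor genes. Of the 9209 kept genes, 4752 had a difference of 0 or more, and this share was not counted for genes below the filter. The summed unlogged level of the fibroblast markers, background signal included, was 1399 on the empty-vector array and 1862 on the other, a 1.33-fold difference. The markers DCN, PDGFRA, FAP and POSTN lay within the range of olfactory receptor genes on both arrays, although FAP had the largest marker difference, 1.71 (5.26 against 6.97). COL1A1, a chain of the main fibroblast collagen, differed by 0.32. Both samples are labelled as the A549 line and the RNA is an Ago2 precipitate, so the marker values are not shares of cell types. Whether any other cells were present was not tested. The summed level of the 7 epithelial markers was 0.892 times as high with miR-130b, and CDH1, E-cadherin, was the 1 of them past 2-fold, at -1.12. Of the 5 measured leukocyte markers CD68, at -1.18, was past 2-fold, and the 5 endothelial markers differed by 0.10 to 0.32.

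Position on the chromosome was examined through RefSeq's gene order, taking the 4 protein-coding genes on either side of each member and any that overlap it. MMP2 lies on chromosome 16 between IRX6 and LPCAT2. LPCAT2, a lysophospholipid acyltransferase, was 2.33-fold higher, a difference of 1.22, and IRX3, a homeobox gene a little further off, was 2.31-fold higher (8.94 against 10.14). CES1, a carboxylesterase on the far side, was 5.08-fold lower (10.99 against 8.65). So 3 of the 8 measured neighbours of MMP2 were past 2-fold, in both directions. Among the 54 neighbours measured for all members, 4 were, the other being SLC7A7, an amino acid transporter near MMP14, at -1.48. The background over all named genes was 2.43% in either direction.

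The TIMP genes sit inside or around other genes. TIMP1, TIMP3 and TIMP4 lie within the synapsin genes SYN1, SYN3 and SYN2, which encode synaptic vesicle proteins. The synapsins differed by 0.03, 0.16 and -0.01, all at levels below the filter. SYN2, the host gene of TIMP4, stood at 7.73 and 7.72, where background can hide part of a difference. Whether it shared the lower value of TIMP4 cannot be read from these values. The next gene after TIMP4 on chromosome 3 is PPARG, an adipogenic nuclear receptor reported as a miR-130 family target, which differed by -0.74 (12.15 against 11.41). TIMP2 overlaps CEP295NL, which differed by -0.52 at a level below the filter (7.91 against 7.39), against 0.14 for TIMP2. The files do not say whether the probes of overlapping genes distinguish strands.

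Apart from MIR130B, the measured genes of the microRNAs shown above were below the filter, and probe sets of microRNA genes need not measure the mature forms. MIR21 differed by -0.54 (8.61 against 8.07), below the filter. MIR29A (6.21 against 4.66), MIR221 (6.85 against 6.20) and MIR301A (3.73 against 3.51) were all within or below the range of olfactory receptor genes on both arrays, and no fold is given for them.

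The kept genes nearest to MMP2 in their difference were HSPA2, DMBT1, NCKAP5 and NR4A2. On the empty-vector array they stood at 8.61, 7.74, 7.24 and 8.59, all below the filter level of 8.64. Each was therefore kept only through its value on the miR-130b array. MMP2, at 8.72, lay just above the filter level, so its contrast with HSPA2 and NR4A2 is slight. HSPA2, an HSP70-family chaperone, was closest (8.61 against 12.02), with a gap of 0.07 from MMP2's difference. DMBT1, a secreted scavenger-receptor glycoprotein, differed by 3.11, NCKAP5 by 4.17 and the orphan nuclear receptor NR4A2 by 2.44. The measure of likeness was the gap between differences over 2 arrays, which cannot tell 1 pattern from another beyond its size. Within 0.1 of MMP2's difference lay 1 other kept gene, whereas 2313 kept genes lay that close to TIMP2, 266 to RECK and 169 to TIMP4.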

How the data were processed

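Each sample was measured on 1 Affymetrix whole-transcript array with biotin-labelled cDNA, per the labels. The deposited values are log2 expression per probe set, a unit read from their range. The authors' software and normalization: not given in the sources used here. Both columns have a median of 7.77, so differences are relative to the other probe sets. The labels' extraction protocol describes tissue, although both samples are a cell line.

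Probe sets with 1 symbol in the platform annotation (19460 of 33297) were used, with symbols updated through RefSeq and averaged per gene. Kept genes had a mean level at or above the 50th percentile. The threshold was 2-fold. With 1 array per group, no statistical test between the groups was made. The number of arrays limits the precision. Fold counting was tested on simulated data. The members, gene lists and list of alternatives were chosen with earlier results of these data known. The microRNAs and chromosomal neighbours were chosen after the values were seen. All members were named, with every kept list gene past 2-fold and the largest list differences each way; other list genes were added for their role. Alternatives were no filter, the 75th percentile, median centring, quantile normalization, cyclic loess, the brightest probe set and 1.5-fold. Python 3.11.15, R 4.3.3 and limma 3.58.1 (cyclic loess) were used.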

Additional observations from a re-analysis of the deposited data

How the results depend on the processing

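The differences of the 7 genes and the 10 protease-to-inhibitor ratios were recomputed under median centring, quantile normalization, cyclic loess and the brightest probe set per gene. All 68 values moved by less than the SD between probe sets (for ratios, less than 0.23). Many of them could not move. Centring cannot change a ratio and shifts the 7 differences alike. The brightest probe set can change only values that involve TIMP3, the member with 2 probe sets. MMP2 ranged from 3.29 to 3.37, TIMP2 from 0.08 to 0.16, TIMP1 from 0.04 to 0.12, RECK from 0.58 to 0.67, TIMP4 from -0.87 to -0.79, MMP14 from -0.10 to -0.04 and TIMP3 from 0.17 to 0.29. The counts of kept genes past the threshold, 122 higher and 147 lower, followed the number of genes tested: 196 and 252 without a filter, and 40 and 60 with a filter at the 75th percentile, which left MMP2, TIMP1 and TIMP2 as the kept members. MMP2 passed that stricter filter only through its miR-130b value, as its empty-vector level of 8.72 lay below the cut of 10.34. At 1.5-fold the counts were 464 and 541, with 2 members higher and 1 lower in place of 1 and 0. The lists around these genes depended on the filter. At the 75th percentile the median of the MMP2 activation list was -1.04 (PCSK6 and CLDN1 left) in place of 0.04, that of the basement membrane list -0.11 in place of 0.05 and that of the TIMP and RECK partners -0.07 in place of 0.02. At that filter SPOCK1, FZD7, COL4A6, LAMB3 and ETS1 were no longer among the kept genes past 2-fold. Without a filter the median of the other MMPs was 0.18 in place of -0.93, which rests on MMP7 alone, and that of the other inhibitors 0.17 in place of 0.57. The list medians near 0 also changed sign under centring (-0.02, -0.0003 and -0.04 for the activation, basement membrane and partner lists) and, for activation (-0.06) and partners (-0.02), with the brightest probe set. Centring left 1 kept transcription factor at least 2-fold higher in place of 2. No paired analysis was possible because each group has 1 array, and for the same reason no replicate could be left out. Without detection p-values, low signals such as those of TIMP3 and MMP14 could not be marked as absent or present.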
